A study of Mus musculus with 2 samples.

Results

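The Pou3f genes are the 4 genes Pou3f1, Pou3f2, Pou3f3 and Pou3f4, taken by symbol from the 18088 gene rows of 1 single-cell expression matrix. All 4 had a row and all 4 passed the minimum level used for comparisons with other genes. The genes were singled out with earlier results of these data known, and the difference of Pou3f1 between cholinergic and GABAergic neurons was among those results. That difference is therefore given as a description.

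The cells came from the medial ganglionic eminence (MGE), the ventral forebrain swelling that produces cortical interneurons and neurons of the pallidum and basal forebrain. Tissue was taken from CD-1 mouse embryos at E11.5 and run as 1 pooled 10x Chromium library with MULTI-seq sample barcodes. The sample multiplexed 2 enhancers, hs192 and hs799. Of 6 sample barcodes, 4 marked GFP-gated cells and 2 marked ungated cells. Which barcode each cell carried was not analysed here, so enhancers and gates cannot be told apart, and the gate can set the share of any cell class. With 1 library there were no replicates. Every spread given is over cells of that library, and no test was made.

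POU domain factors bind DNA through a POU-specific domain and a POU homeodomain joined by a linker. The class III genes are intronless and are expressed in overlapping patterns in the embryonic nervous system, where they often act beside Sox factors on neural enhancers. Pou3f1 (also Oct6 or SCIP) is best known from the myelination programme of Schwann cells, Pou3f2 (Brn2) and Pou3f3 (Brn1) from the production and migration of cortical projection neurons, and Pou3f4 (Brn4) from the inner ear and from striatal neuron precursors. In GRCm38 with the GENCODE M21 annotation each was a protein-coding gene of 1 transcript and 1 exon. Pou3f1 (ENSMUSG00000090125) lay on the plus strand at chr4:124656807-124660655, and Pou3f2 (ENSMUSG00000095139) on the minus strand of the same chromosome at chr4:22482780-22488366. Pou3f3 (ENSMUSG00000045515) lay on the plus strand at chr1:42695768-42703176, and Pou3f4 (ENSMUSG00000056854) on the plus strand at chrX:110814280-110817207.

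The coding sequences are closely alike in the part that encodes the POU-specific domain, which bears on whether reads of 1 member could be counted for another. The 60 coding bases most alike among the 4 are shown, from the GENCODE M21 transcripts, 5′ to 3′ on the coding strand. Capitals mark the 10 positions at which the 4 genes are not all the same, and the other 50 are identical in all.
Pou3f1, chr4:124658556-124658615, plus strand: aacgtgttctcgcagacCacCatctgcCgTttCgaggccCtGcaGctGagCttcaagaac
Pou3f2, chr4:22487166-22487225, minus strand: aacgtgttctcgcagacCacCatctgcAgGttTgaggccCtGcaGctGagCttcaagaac
Pou3f3, chr1:42698193-42698252, plus strand: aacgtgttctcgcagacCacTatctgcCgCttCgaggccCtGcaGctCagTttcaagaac
Pou3f4, chrX:110815137-110815196, plus strand: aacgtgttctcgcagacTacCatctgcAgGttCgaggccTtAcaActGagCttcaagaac

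Even so, the longest run of bases shared by any pair of the 4 transcripts was 38, between Pou3f1 and Pou3f2, and the shortest such maximum was 23. In the last 500 bases of the transcripts, nearest to where polyA-primed libraries are read, the longest shared run was 8 to 12 bases. The antisense gene Gm2164 overlaps Pou3f1 by 363 bases and had a value in 0.426% of cells. No label states whether strand was used in counting, so reads from that overlap cannot be assigned with certainty.

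All 4 genes were widely detected. Levels are given as the summed value of the gene per 10000 summed values of a set of cells, so that each gene can be followed from one set of cells to another, but levels of different genes are not compared. Over the 3995 cells used, Pou3f1 had a level of 2.39 (SD 4.15 over cells) and a value above 0 in 58.9% of cells (exact 95% binomial interval 57.3% to 60.4%). Pou3f2 had a level of 1.62 (SD 2.34) and a value in 62.6% (61.1% to 64.1%). Pou3f3 had a level of 1.80 (SD 1.80) and a value in 72.7% (71.3% to 74.0%). Pou3f4 had a level of 2.49 (SD 3.17) and a value in 70.0% (68.6% to 71.5%). These intervals cover the counting of cells only. Pou3f1 had the longest tail, with a median value of 1 and a highest value of 47, whereas the highest values were 20 for Pou3f2, 18 for Pou3f3 and 26 for Pou3f4.

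The cells fell into 18 clusters, made without the 4 Pou3f genes so that their own values did not place a cell. Clusters were named from marker lists as ventricular zone (VZ) progenitor-like (1090 cells), subventricular zone (SVZ) progenitor-like (642), cholinergic neuron-like (882), GABAergic MGE neuron-like (805), lateral ganglionic eminence (LGE) neuron-like (155) and caudal ganglionic eminence (CGE) neuron-like (120). The CGE name of cluster 18 rests on Nr2f2, Sp8 and Prox1. Its 4 CGE markers with a row summed to a level of 7.80. The 9 LGE markers summed to 13.7 there, with Meis2 at 5.86, and to 38.7 in the LGE cluster 16. Clusters 14 and 17 had no name. Cluster 5 (40 cells) had enough markers of glutamatergic neurons but was led by Otp and Nhlh2, and is called by its number. The cholinergic class rests on Lhx8, Gbx1, Gbx2, Isl1, Zic1 and Zic4, since Chat and Slc18a3, which define mature cholinergic neurons, had no row. The GABAergic class rests on Lhx6, Npy, Maf and Sox6, with Sst and other interneuron genes in cluster 15 only. Sst was at 3.13 in cluster 15 and 0.0644 in cluster 13, the other GABAergic cluster. Lhx6 by itself did not separate the classes. It was at 3.34 and 3.55 in clusters 13 and 15, and at 2.28 to 3.62 in the cholinergic neuron-like clusters.

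Each of the 4 genes had its own order of clusters. Pou3f1 was highest in cluster 10, a cholinergic neuron-like cluster of 217 cells led by Chl1, Foxp2, Vstm2l and Robo3, at a level of 10.0 (SD 8.38). It was lowest, at 0.108 (SD 0.269), in cluster 3, a VZ progenitor-like cluster of 43 cells led by Igfbp5 and Ptx3. This made a 92.4-fold range, whose low end rests on 6 cells with a value of 1 each. Pou3f2 was highest in the cholinergic neuron-like cluster 8, led by Lhx8 and Arl4d, at 4.53 (SD 3.49), and lowest in cluster 17, led by Hmx2 and Hmx3, at 0.330 (SD 0.681), a 13.7-fold range. Pou3f3 was also highest in cluster 8, at 2.55 (SD 1.91), and lowest in cluster 3, at 0.126 (SD 0.337), a 20.2-fold range. The low end of that range also rests on 6 cells with a value. Pou3f4 was highest in the GABAergic neuron-like cluster 13, led by St18 and Npy, at 6.03 (SD 4.12), level with cluster 8 at 6.03 (SD 3.91). It was lowest in cluster 5, at 0.141 (SD 0.490), a 42.7-fold range, and at 0.0222 there without 4 cells whose values skip 1. For none of the genes were neighbouring clusters in its order apart by more than the SD over cells (0 of 17 neighbouring pairs for each). That SD is the spread of single cells and not the uncertainty of a cluster level, so this count does not decide the order. The intervals of the share of cells with a value overlapped in 13 to 15 of those 17 pairs. Over the 9 clusterings, counting this one, the highest Pou3f2 cluster was cholinergic in 9. The class of the highest Pou3f3 cluster depended on the clustering, being GABAergic in 4, VZ in 3, cholinergic in 1 and unnamed in 1, and its lowest cluster changed too. The highest Pou3f4 cluster was cholinergic in 5, GABAergic in 3 and unnamed in 1.

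**Figure D1:**
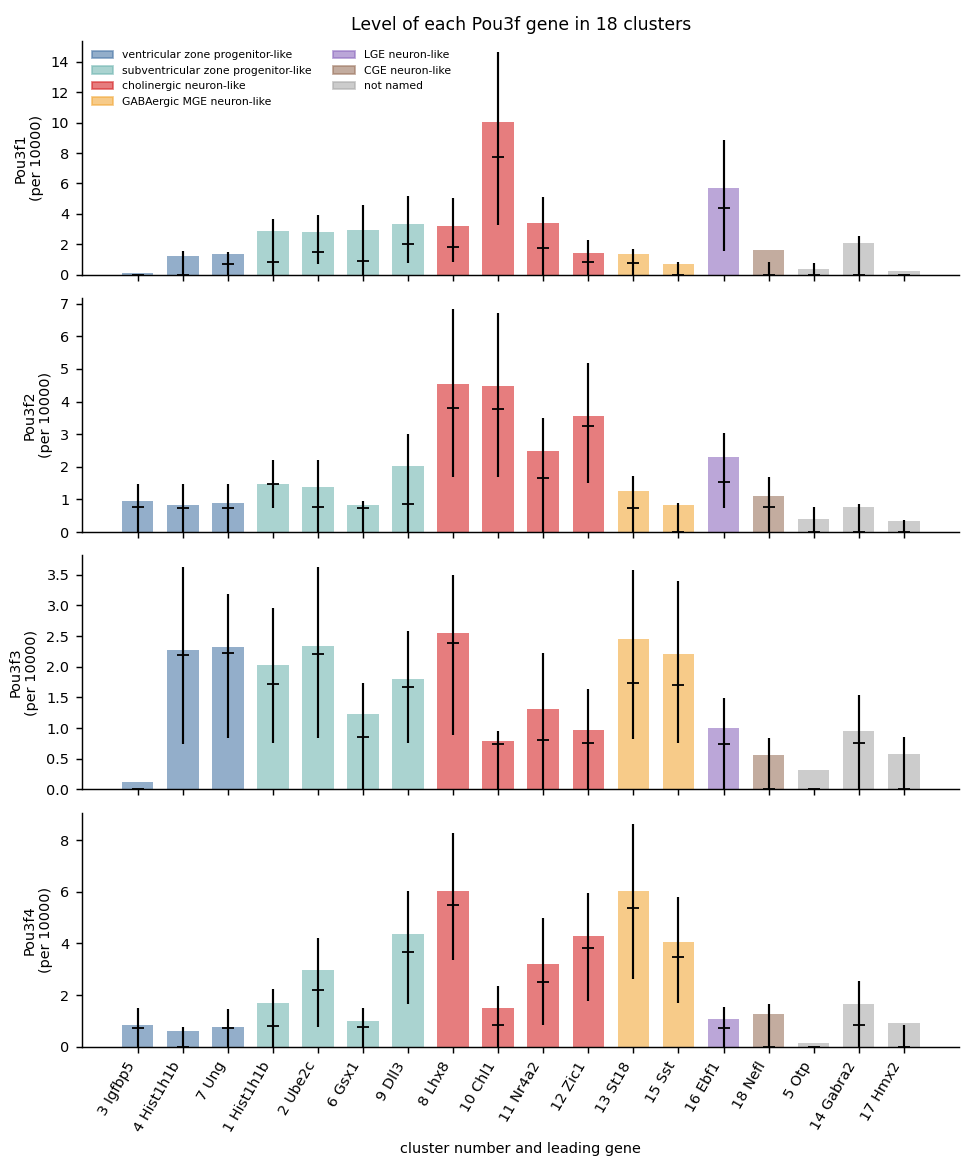
Level of each Pou3f gene (summed value per 10000, bars) in 18 clusters coloured by class, with the median (dash) and the quartiles (line) over cells. Pou3f1 stands highest in clusters 10 and 16, Pou3f2 in clusters 8 and 10, Pou3f3 in clusters 8 and 13, and Pou3f4 in clusters 13 and 8.

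The remaining levels of Pou3f1, from low to high, were 0.273 (SD 0.577) in cluster 17, 0.363 (SD 0.918) in cluster 5 and 0.701 (SD 1.19) in the GABAergic cluster 15, led by Sst and Calb1. The VZ clusters 4 and 7 stood at 1.22 (SD 1.96) and 1.37 (SD 2.39), with the GABAergic cluster 13 between them at 1.34 (SD 1.93). Above them came the cholinergic cluster 12 at 1.44 (SD 1.96), the CGE cluster 18, led by Nefl and Six3, at 1.65 (SD 4.21), and the unnamed cluster 14, led by Gabra2, at 2.07 (SD 4.003). The SVZ clusters lay close together, at 2.83 (SD 3.62) in cluster 2, 2.85 (SD 4.63) in cluster 1, 2.94 (SD 3.90) in cluster 6 and 3.32 (SD 3.93) in cluster 9. In cluster 18 the median cell had a Pou3f1 value of 0 while 7.5% of its cells had 10 or more, so its level came from few cells.

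For Pou3f2, the 3 highest levels were all cholinergic, and the cholinergic cluster 11 followed at 2.48 (SD 2.84), above the LGE cluster 16 at 2.30 (SD 2.40) and the SVZ cluster 9 at 2.02 (SD 2.45). The other SVZ clusters 1, 2 and 6 stood at 1.47 (SD 1.35), 1.38 (SD 1.64) and 0.824 (SD 1.17). The VZ clusters 3, 7 and 4 stood at 0.939 (SD 0.994), 0.899 (SD 1.02) and 0.825 (SD 0.936). The CGE cluster 18 was at 1.096 (SD 1.52), cluster 14 at 0.754 (SD 1.22) and cluster 5 at 0.403 (SD 0.844).

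Pou3f3 was nearly as high in several progenitor clusters as in cluster 8, while the VZ cluster 3 was the lowest of all at 0.126. The SVZ clusters 2, 1, 9 and 6 stood at 2.34 (SD 1.68), 2.03 (SD 1.48), 1.80 (SD 1.65) and 1.23 (SD 1.45), and the VZ clusters 7 and 4 at 2.32 (SD 1.72) and 2.27 (SD 1.69). The GABAergic clusters 13 and 15 stood at 2.46 (SD 2.19) and 2.21 (SD 2.03), above the cholinergic clusters 11, 12 and 10 at 1.32 (SD 1.78), 0.961 (SD 1.28) and 0.797 (SD 1.102). Clusters 16, 14, 17, 18 and 5 stood at 1.01, 0.949, 0.579, 0.558 and 0.322.

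Pou3f4 was higher in every cholinergic and GABAergic neuron-like cluster than in the 3 VZ clusters. Below the 2 clusters at 6.03 stood the SVZ cluster 9 at 4.36 (SD 3.53), the cholinergic cluster 12 at 4.28 (SD 3.14), the GABAergic cluster 15 at 4.04 (SD 3.14) and the cholinergic cluster 11 at 3.21 (SD 2.91). The SVZ clusters 2, 1 and 6 stood at 2.96 (SD 2.84), 1.69 (SD 2.15) and 0.987 (SD 1.44), and the VZ clusters 3, 7 and 4 at 0.830 (SD 0.883), 0.780 (SD 1.01) and 0.625 (SD 0.838). Clusters 14, 10, 18, 16 and 17 lay between, at 1.65, 1.49, 1.27, 1.08 and 0.925.

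Pou3f1 was detected widely, but its high values were most frequent in cluster 10. Cluster 10 held 5.43% of the cells and 22.3% of the summed Pou3f1 value. A value was present in 92.6% of its cells (88.3% to 95.7%), and 48.4% of them had a value of 10 or more, against 8.51% of all cells. The second level in the order was that of the LGE neuron-like cluster 16, led by Ebf1 and Tac1, at 5.68 (SD 5.20) with a value in 88.4% of cells (82.3% to 92.97%). Clusters 10 and 16 did not share the defining LGE gene Ebf1, which was at 0.0823 in cluster 10 and 18.8 in cluster 16. Foxp2, which is also on the LGE list, was at 2.06 in cluster 10 and 0.180 in cluster 16, and the summed level of the 9 LGE markers was 4.18 in cluster 10, 38.7 in cluster 16 and 1.56 to 3.03 in the other cholinergic neuron-like clusters. The part of these markers in the Pou3f1 level of cluster 10 was not tested.

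The low end of the scale bears on what a value in few cells can mean. Free RNA can give values in cells that do not express a gene. In cluster 3, Pou3f1 had a value in 14.0% of cells (5.30% to 27.9%) and Pou3f3 likewise in 14.0% (5.30% to 27.9%), at a median cell total of 13166. In cluster 5, Pou3f4 had a value in 12.5% of cells (4.19% to 26.8%) at a median cell total of 12152. Haemoglobin and other erythroid genes, which MGE cells should lack, had a summed level between 1.54 and 2.25 in all 18 clusters. The part of free RNA in the Pou3f values was not tested.

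Progenitors and neurons both carried all 4 Pou3f genes and differed in their levels, least in that of Pou3f3. The 1687 neuron-like cells (cholinergic and GABAergic) were compared with the 1090 VZ progenitor-like cells. Pou3f4 stood at 4.23 in neuron-like cells (SD 3.61) and 0.709 in VZ progenitor-like cells (SD 0.931), a log2 ratio of 2.58. Pou3f2 stood at 2.40 in neuron-like cells (SD 3.002) and 0.866 in VZ progenitor-like cells (SD 0.978), a log2 ratio of 1.47. Pou3f1 stood at 2.90 in neuron-like cells (SD 4.87) and 1.25 in VZ progenitor-like cells (SD 2.16), a log2 ratio of 1.21. Pou3f3 stood at 1.87 in neuron-like cells (SD 1.97) and 2.21 in VZ progenitor-like cells (SD 1.72), a log2 ratio of -0.24. Thus 3 of the 4 were at least 2-fold higher in neuron-like cells, where 15.9% of the 5179 genes at the minimum level were, and 0 were at least 2-fold lower, where 14.7% were. The Pou3f1 ratio rested on cluster 10, without which it was 0.55.

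Cholinergic and GABAergic neuron-like cells differed in Pou3f1 and Pou3f2 and less in the other two. Pou3f1 had a level of 4.72 in cholinergic neuron-like cells (SD 6.04) and 0.944 in GABAergic neuron-like cells (SD 1.54), a 4.996-fold difference. A value was present in 77.8% of cholinergic (74.9% to 80.5%) and 49.2% of GABAergic neuron-like cells (45.7% to 52.7%), at median cell totals of 11828.5 and 12076. Pou3f2 had a level of 3.70 in cholinergic neuron-like cells (SD 3.34) and 0.998 in GABAergic neuron-like cells (SD 1.69), a 3.71-fold difference, with a value in 85.1% (82.6% to 87.4%) and 45.3% (41.9% to 48.9%) of them. These ratios were above those of 99.8% and 99.6% of the 5179 genes. At least 2-fold higher levels in the cholinergic class were found for 0.985% of these genes and for 2 of the 4 Pou3f genes. As the members were chosen with the Pou3f1 difference known, nothing is read from that count.

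Pou3f3 had a level of 1.47 in cholinergic neuron-like cells (SD 1.75) and 2.30 in GABAergic neuron-like cells (SD 2.10), a log2 ratio of -0.65. Pou3f4 had a level of 3.71 in cholinergic neuron-like cells (SD 3.48) and 4.79 in GABAergic neuron-like cells (SD 3.67), a log2 ratio of -0.37. Neither reached a 2-fold lower level, which 1.31% of the genes did. The sign for Pou3f4 depended on the definition of the classes: the log2 ratio was 0.19 at the coarser cluster resolution of 0.5 and 0.20 when neurons were chosen by genes alone.

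**Figure D2:**
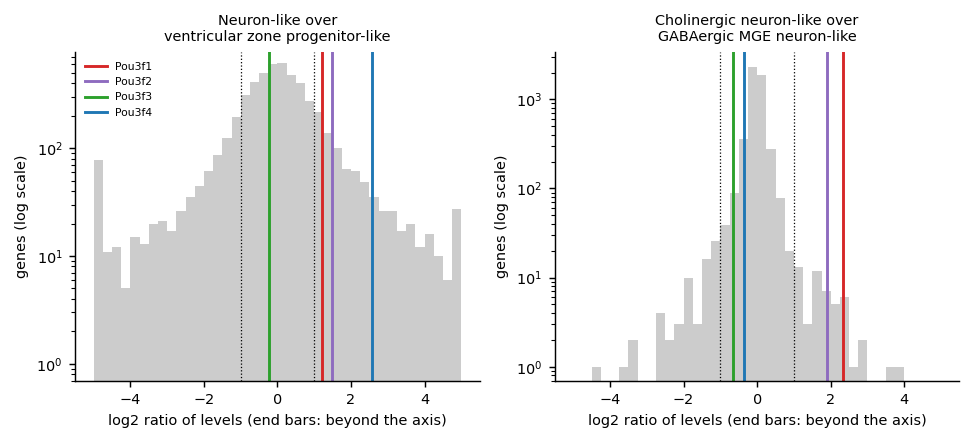
Number of genes (log scale) by log2 ratio of levels among the 5179 genes at the minimum level, for neuron-like over VZ progenitor-like cells (left) and cholinergic over GABAergic neuron-like cells (right), with each Pou3f gene as a coloured line and 2-fold marked by dotted lines. Of the 4, Pou3f4 lies farthest right on the left panel, at 2.58, and Pou3f1 on the right panel, at 2.32, and the end bars hold genes beyond the axis.

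The 4 cholinergic neuron-like clusters did not carry the Pou3f genes alike. Cluster 10 had a Pou3f1 level of 10.0, and clusters 11 (led by Nr4a2 and Gbx1), 8 and 12 (led by Zic1 and Kitl) had levels of 3.42, 3.20 and 1.44. Cluster 12 (SD 1.96) was thus about level with the GABAergic cluster 13 at 1.34 (SD 1.93), while the GABAergic cluster 15 was at 0.701. Without cluster 10 the log2 ratio of Pou3f1 to the GABAergic class was 1.64. Pou3f2 was at 4.47 in cluster 10, 4.53 in cluster 8, 3.55 in cluster 12 and 2.48 in cluster 11, each above the 1.26 and 0.836 of the GABAergic clusters 13 and 15. Pou3f4 took another order, at 6.03 in cluster 8, 4.28 in cluster 12, 3.21 in cluster 11 and 1.49 in cluster 10. Cluster 8 held the largest share of cells whose values skip 1 of all 18 clusters (15.5%), and without those cells its levels were 2.96 for Pou3f1, 4.49 for Pou3f2, 2.55 for Pou3f3 and 6.30 for Pou3f4.

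Neurons chosen by genes alone, without clusters, differed in the same direction for Pou3f1, Pou3f2 and Pou3f3 and in the other direction for Pou3f4. Of 1695 cells with Stmn2, a growth-cone protein gene, and without Hes5 and Mki67, 706 had values of both Lhx8 and Zic1, and 231 had Lhx6 without Lhx8. Pou3f1 was at 4.12 in Lhx8 and Zic1 cells (SD 5.76) and 1.04 in Lhx6 cells without Lhx8 (SD 2.16). Pou3f2 was at 3.12 in Lhx8 and Zic1 cells (SD 3.17) and 0.645 in Lhx6 cells without Lhx8 (SD 1.36). Pou3f3 was at 1.43 in Lhx8 and Zic1 cells (SD 1.73) and 1.98 in Lhx6 cells without Lhx8 (SD 2.12), and Pou3f4 at 3.92 (SD 3.64) and 3.41 (SD 3.26) in the same sets.

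Among neurons with Lhx8, the LIM-homeodomain gene of the cholinergic lineage, Pou3f1 was higher in cells with Isl1, Gbx1, Gbx2, Zic1 or Zic4 than in cells without that gene. Pou3f1 was lower in cells with Sst or with Lhx6, which most of these neurons carried. It was at 5.99 in the 200 cells with Gbx2 (SD 6.40) and 2.66 in the 1088 without it (SD 4.49). It was at 4.97 in the 358 cells with Isl1, the LIM-homeodomain gene needed for cholinergic and striatal neurons (SD 6.50), and 2.47 in the 930 without it (SD 4.06). It was at 4.34 in cells with Gbx1 and 2.69 in cells without it, and at 4.12 in cells with Zic1 and 2.03 in cells without it. With Sst it was at 1.94 in 117 cells, and without Sst at 3.30 in 1171 cells. With Lhx6 it was at 2.95, and without Lhx6 at 4.41. Pou3f2 was at 3.12 in cells with Zic1 and 1.64 in cells without it, but at 2.29 in cells with Isl1 and 2.51 in cells without it. Pou3f4 was at 2.82 in cells with Isl1 and 4.31 in cells without it, and Pou3f3 at 1.15 in cells with Isl1 and 1.77 in cells without it. Median cell totals of these sets lay close together, at 12102 with Isl1 and 11930 without it. Within cluster 10, the Gbx2 difference had the opposite direction, with Pou3f1 at 8.95 in 99 cells with Gbx2 (SD 7.38) and 10.9 in 118 cells without it (SD 9.06). For Isl1 in cluster 10 it was 10.5 in 108 cells with Isl1 (SD 9.18) and 9.48 in 109 cells without it (SD 7.51), while Pou3f2 was at 3.54 with Isl1 (SD 2.99) and 5.43 without it (SD 3.77).

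**Figure D3:**
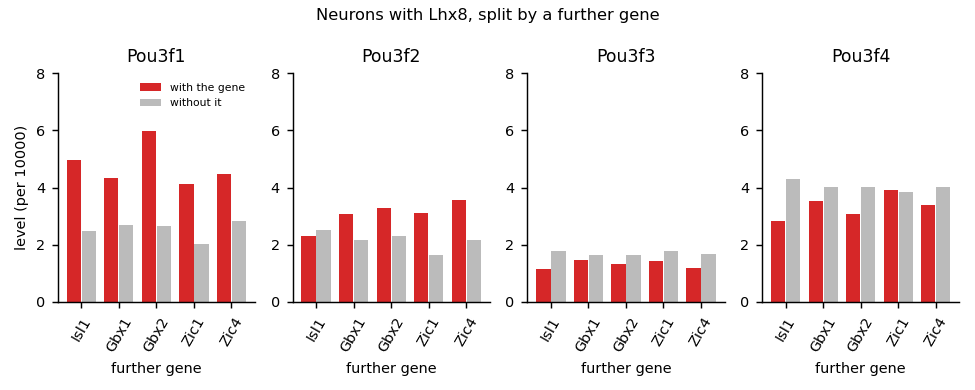
Level (per 10000) of each Pou3f gene in neurons with Lhx8 that have a value of a further gene (red, left bar) or lack one (grey, right bar). Pou3f1 is higher with each of the 5 genes, for example 5.99 with Gbx2 against 2.66 without it, and Pou3f3 is lower with each, for example 1.15 with Isl1 against 1.77 without it.

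Along a score from progenitor to neuron the 4 genes took different courses. The score set 7 neuronal genes (among them Tubb3, Stmn2 and Dcx) against 6 progenitor genes (among them Hes5, Sox2 and Nes), and cells were ordered by it into 10 bins of 399 or 400 cells. Pou3f4 was at 0.651, 0.741 and 0.735 in bins 1 to 3, 1.87 in bin 4, 4.59 in bin 5 and 4.93 in bin 6, and then lower at each further bin to 1.55 in bin 10. Pou3f4 thus peaked after Dll3, a Notch ligand gene of neuronal precursors, which was highest in bin 4 at 2.24. Pou3f3 was at 2.02 in bin 1, 1.98 in bin 5 and 0.861 in bin 10. Pou3f2 was at 0.746 in bin 1, 1.01 in bin 4, 1.87 in bin 5 and 2.44 in bin 10. Pou3f1 was at 1.21 in bin 1, 2.18 in bin 4, 1.70 in bin 7 and 5.99 in bin 10. The bins differ in the share of cells whose values skip 1, which was 0% in bin 1, 12.5% in bin 5 and 0.251% in bin 10, and its part in these courses was not tested.

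**Figure D4:**
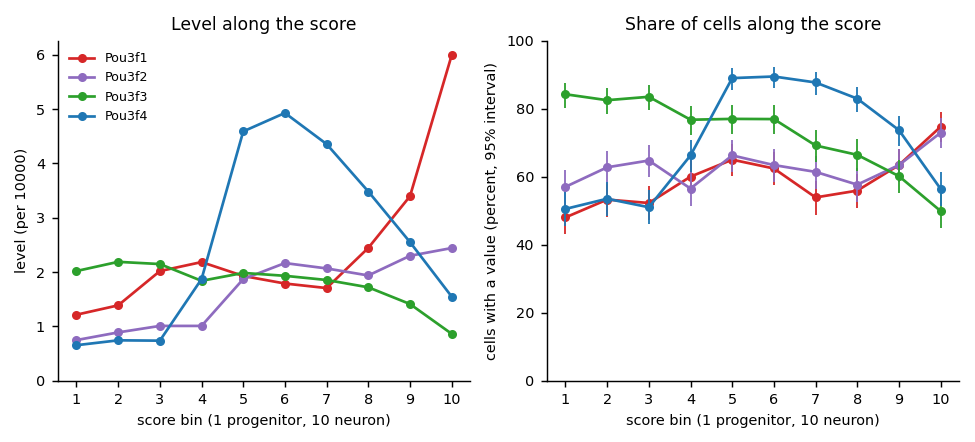
Level of each Pou3f gene (left, per 10000) and share of cells with a value (right, percent with 95% intervals) in 10 bins of a progenitor-to-neuron score. Pou3f4 is highest in bin 6 at 4.93, Pou3f1 in bin 10 at 5.99, and Pou3f3 is lowest in bin 10 at 0.861.

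The late bins mixed cell classes, so the courses were also followed within the classes. In cholinergic neuron-like cells Pou3f1 was at 1.93 in bin 5 (62 cells), 2.92 in bin 7, 5.04 in bin 9 and 9.55 in bin 10 (155 cells). In GABAergic neuron-like cells it was at 1.29 in bin 5 (147 cells), 0.857 in bin 7, 0.406 in bin 9 and 0.667 in bin 10 (34 cells). Cluster 10 held 2 of the cholinergic neuron-like cells of bin 5 and 103 of those of bin 10, where its own Pou3f1 level was 12.3. Without cluster 10 the cholinergic class was at 1.65 in bin 5, 2.69 in bin 7, 3.19 in bin 9 and 4.06 in bin 10 (52 cells), a set chosen after seeing the data. Pou3f4 in cholinergic neuron-like cells was at 5.02 in bin 5, 4.83 in bin 7, 2.87 in bin 9 and 1.95 in bin 10, and in GABAergic neuron-like cells at 5.48, 4.74, 3.53 and 4.07 in the same bins. Pou3f3 in cholinergic neuron-like cells was at 1.72 in bin 5 and 0.673 in bin 10, and in GABAergic neuron-like cells at 2.45 and 2.43. Pou3f2 was at 3.62 in bin 5 and 3.76 in bin 10 of cholinergic neuron-like cells, and at 1.33 and 0.715 in the same bins of GABAergic neuron-like cells. Without cluster 10 the bin 10 levels of the cholinergic class were 1.99 for Pou3f2, 0.893 for Pou3f3 and 3.45 for Pou3f4. Over the 170 cells of bin 10 outside clusters 10 and 16 Pou3f1 was at 2.44.

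Pou3f1 was also higher in SVZ progenitor-like cells, at 3.004 (SD 4.06), than in VZ progenitor-like cells, at 1.25 (SD 2.16), with a value in 69.5% (65.7% to 73.0%) and 49.3% (46.3% to 52.3%) of them. Within bin 3 of the score, the 107 SVZ progenitor-like cells had a Pou3f1 level of 3.92, against 2.02 in the whole bin, which includes them. In bin 4, which held 305 SVZ progenitor-like cells, the same levels were 2.49 and 2.18. In bin 5, with 143 of them, they were 3.02 and 1.93. Cluster 6, the SVZ cluster led by Gsx1 and Gadd45g, had Pou3f1 at 2.94 and Pou3f4 at 0.987, whereas cluster 9, led by Dll3 and St18, had Pou3f1 at 3.32 and Pou3f4 at 4.36.

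Each member was found more often in cells with another member than in cells without it, for all 6 pairs over all cells, though the intervals overlapped for Pou3f2 with Pou3f3. With a value of at least 2 as detection, Pou3f3 was found in 46.3% of cells with Pou3f2 and 46.4% of cells without it, so that pair lost its direction, and in 46.9% of cells with Pou3f1 and 46.0% of cells without it. Detection was counted after each cell was thinned to 10000 summed values. Pou3f2 had a value in 65.9% of cells with Pou3f1 (63.9% to 67.9%) and 47.5% of cells without it (45.2% to 49.9%). The same pair gave 51.6% with Pou3f1 (46.2% to 56.9%) and 34.0% without it (29.7% to 38.5%) within GABAergic neuron-like cells, and 85.4% with (82.5% to 88.0%) and 76.4% without (70.3% to 81.8%) within cholinergic neuron-like cells. Pou3f4 had a value in 79.6% of cholinergic neuron-like cells with Pou3f1 (76.3% to 82.6%) and 83.1% of those without it (77.6% to 87.8%), and these intervals overlapped. Over neuron-like cells, Pou3f4 was less frequent with Pou3f1 (83.6%, 87.7% without it) and with Pou3f2 (84.3% and 86.9%). Pou3f3 was less frequent with Pou3f2 (66.1% and 70.9%), and the intervals of these pairs overlapped. The remaining pairs kept the direction, at 73.7% and 48.0% (Pou3f2 given Pou3f1), 68.3% and 67.3% (Pou3f3 given Pou3f1) and 88.0% and 79.3% (Pou3f4 given Pou3f3). The part of class differences in the all-cell shares was not tested. All 4 members were found in 33.8% of cholinergic (30.7% to 37.0%) and 17.0% of GABAergic neuron-like cells (14.5% to 19.8%), and in 57.1% of cluster 8 (50.7% to 63.4%). None of the 4 was found in 50% of the cells of cluster 5 (33.8% to 66.2%) and in 29.3% of cluster 17 (20.6% to 39.3%).

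Levels over the 18 clusters placed Pou3f3 nearest to Pantr1, a long noncoding RNA gene that starts 925 bases from it on the opposite strand. Among the 5179 genes, the Pearson r of log2(level + 0.1) with Pou3f3 was highest for Pantr1, at 0.92. Pantr1 was at 8.57 in the VZ cluster 7, 5.74 in cluster 8, 0.632 in cluster 3 and 0.604 in cluster 5, and Pou3f3 in the same clusters at 2.32, 2.55, 0.126 and 0.322. Both are therefore low in clusters 3 and 5. Between neurons and progenitors the pair differed, since Pantr1 was at 3.46 in neuron-like and 7.80 in VZ progenitor-like cells, a log2 ratio of -1.17, where that of Pou3f3 was -0.24. Over single cells the Spearman rho of the pair was 0.54. The sense-overlapping transcript AC122898.1 of the annotation, named Gm20646 in the matrix, had a value in 2.05% of cells.

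The 250 bases before the start of Pou3f3, which lie between it and Pantr1, are shown with those of Pou3f2, whose nearest gene (Gm30731, 2181 bases away) had a value in 0.826% of cells. Sequences are from RefSeq (GRCm38.p6), 5′ to 3′ on the strand of the gene, with CCAAT or its reverse complement ATTGG in capitals.
Pou3f3, chr1:42695518-42695767, plus strand: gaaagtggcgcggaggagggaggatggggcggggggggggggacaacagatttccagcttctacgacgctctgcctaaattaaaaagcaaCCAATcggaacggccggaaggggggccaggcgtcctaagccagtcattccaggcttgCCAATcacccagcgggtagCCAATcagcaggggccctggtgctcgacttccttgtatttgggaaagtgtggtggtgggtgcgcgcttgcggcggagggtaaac
Pou3f2, chr4:22488367-22488616, minus strand: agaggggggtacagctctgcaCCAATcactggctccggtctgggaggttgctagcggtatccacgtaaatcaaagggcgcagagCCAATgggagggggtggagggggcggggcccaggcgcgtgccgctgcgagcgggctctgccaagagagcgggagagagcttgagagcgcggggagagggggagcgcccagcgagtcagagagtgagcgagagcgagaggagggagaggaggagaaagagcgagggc

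Pou3f3 had 3 such matches and Pou3f2 had 2. RefSeq start regions were matched for 3 of the 4 members, and that of Pou3f4 was left out because it runs into the GENCODE transcript. Over 32851 windows of the same length, 33.8% held at least 1 match on either strand, 10.1% at least 2 and 2.79% at least 3. The octamer ATGCAAAT, the classic POU motif, and TATAAA had 0 matches on either strand in both windows, and 1.601% and 12.4% of all windows held them. A match describes the letters of the window and is not a shown site.

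The genes most like the other members differed from one another. Pou3f4 was most like Arl4d, a small GTPase gene (r = 0.95), Dclk2, a doublecortin-like kinase gene (0.90), Lhx6, the LIM-homeodomain gene of MGE interneurons (0.88), Gad1, which makes GABA (0.87), and Upf3b of nonsense-mediated decay (0.87). Pou3f2 was most like Zic1 (0.78), Gm4258, the noncoding AI606473, Spats2l and the DNA methyltransferase gene Dnmt3a (0.75). Pou3f1 had the weakest likeness, with Mpped2 (0.74), Pou3f2 (0.71), the semaphorin receptor gene Plxna2 (0.71), Gm4258 and Yeats4 (0.71). After Pantr1, Pou3f3 was most like Sdhb (0.78), Arfrp1, Clpx and Mtx1 (0.73), whose own levels varied little, Sdhb between 2.06 and 2.88. All points share 1 library, and the 18 clusters range from 40 to 542 cells. Among the members, r over clusters was highest for Pou3f1 with Pou3f2 and lowest for Pou3f2 with Pou3f3, at 0.29, and over single cells the Spearman rho was 0.27 for Pou3f1 with Pou3f2 and 0.01 for Pou3f1 with Pou3f3.

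**Figure D5:**
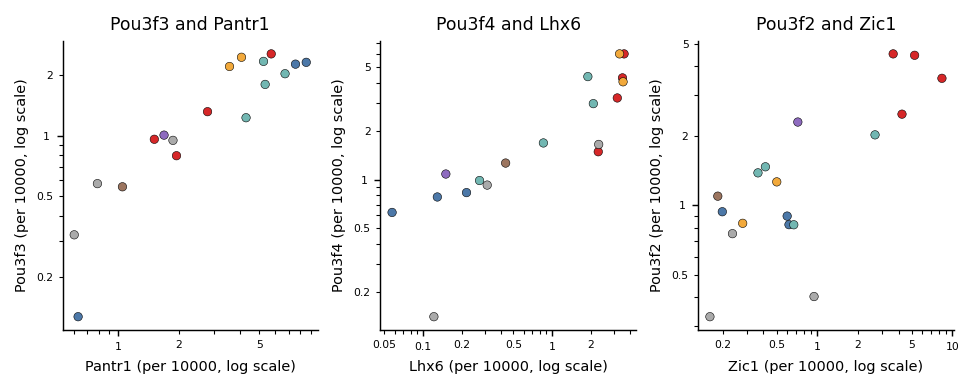
Levels per 10000 (log axes) over 18 clusters of Pou3f3 and Pantr1, Pou3f4 and Lhx6, and Pou3f2 and Zic1, with points coloured by class as in the plot of levels by cluster. The Pearson r of log2(level + 0.1) is 0.92, 0.88 and 0.78.

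Few of the genes near the members were well detected. Of the genes within 100 kb that had a row, 6 lay near Pou3f1, 4 near Pou3f2, 3 near Pou3f3 and 1 near Pou3f4, and 3 reached the minimum level, and these were Utp11, Sf3a3 and Pantr1. Utp11 and Sf3a3, 17504 and 54120 bases from Pou3f1, had r of -0.20 and -0.24 with it over clusters.

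Of the 11 other POU genes, 7 had a row and 1 reached the minimum level. This was Pou2f2, a class II gene, at 0.828 in neuron-like and 0.132 in VZ progenitor-like cells (log2 ratio 2.56). It was highest at 4.06 in the LGE cluster 16, where Pou3f1 had its second-highest level. It was nearly as high in clusters 18, 5 and 17, at 3.74, 3.51 and 3.01, where Pou3f1 was at 1.65, 0.363 and 0.273. All 9 Sox genes of groups B1, C and E had a row and 7 reached the minimum level. Against VZ progenitor-like cells, 3 of them were at least 2-fold higher in neuron-like cells (Sox4, Sox11 and Sox12 of group C), where 15.9% of all genes were. Another 3 were at least 2-fold lower (Sox1, Sox2 and Sox9), where 14.7% were. The median log2 ratio of the 7 was 0.63, against 0.0026 over all 5179 genes. Between the neuron classes 0 of the 7 were 2-fold higher in the cholinergic class, where 0.985% of all genes were, and 3 were 2-fold lower, where 1.31% were. These 3 were all of group B1, the partners best known for class III POU factors. Sox2 was at 0.839 in cholinergic and 4.98 in GABAergic neuron-like cells, Sox3 at 0.367 and 1.27, and Sox1 at 0.278 and 0.576. The median of the 7 was -0.06, against -0.02 over all genes. Of 6 genes known to be bound or activated by class III POU factors, 4 had a row and 3 reached the minimum level. Nes, the neural stem cell filament gene, was at 0.684 in neuron-like and 8.64 in VZ progenitor-like cells, Fabp7, the radial glia lipid-binding protein gene, at 0.358 and 15.1, and Dll1, a Notch ligand gene, at 0.178 and 0.361. Of the 3, 0 were at least 2-fold higher and 2 (Nes and Fabp7) at least 2-fold lower in neuron-like cells on the scale with the offset of 0.01, on which Dll1 had a log2 ratio of -0.98. On the levels as printed Dll1 is also just past 2-fold lower. Over all 5179 genes 15.9% were at least 2-fold higher and 14.7% at least 2-fold lower. Nes and Fabp7, like Sox2 and Sox9 above, are on the marker list that named the VZ class. Their direction was thus set in part by the naming, and nothing is read from it. The score used Nes and Fabp7 too. Between the neuron classes 0 of these 3 were 2-fold higher and 1 was 2-fold lower, where 0.985% and 1.31% of all genes were. The lower gene was Dll1, at 0.112 in cholinergic and 0.2499 in GABAergic neuron-like cells.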

How the data were processed

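The matrix held whole-number values of 18088 genes in 4001 cells (0 to 1245). The submitters' processing notes name GRCm38, bcl2fastq and Cell Ranger 3.0.2. Cell totals of 10475 to 14196 (median 12506; 2471 to 5486 genes per cell) and values that skip 1 in 214 cells (5.35%: under 10% of values equal to 1 over 736 genes of mean near 1) point to a depth correction before deposit, so the unit of the deposited values was taken as a score and raw depth is unknown. How that correction was made is stated in no label.

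Scrublet called 6 cells (0.150%), too few to show that it worked, and they were removed. Clusters came from Leiden (resolution 1, scanpy 1.11.5, igraph 0.11.9) on a graph of 15 neighbours over 30 principal components of the 2000 most variable genes less the Pou3f genes. A name needed at least 3 markers at 1.5-fold in 10% of cells, and no more markers of another class among the 10 leading genes. Members, lists, naming rule and score genes were chosen with earlier results of these data known. Named genes were the members, genes within 100 kb, the 5 most alike genes per member, and the lists. The minimum level was 0.3 per 10000. Ratios of single genes used no pseudocount for members, and 0.01 for lists. Exact (Clopper-Pearson) intervals are at 95%. The level ratio was tested on simulated data, with pass limits that were reset after earlier limits had failed, so it is not an independent check.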

Additional observations from a re-analysis of the deposited data

How the results depend on the processing

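No paired analysis was possible because there was 1 library. Over 10 alternatives of the neuron-like to VZ comparison and 11 of the cholinergic to GABAergic comparison (cells kept, scaling, thinning, resolution, number of variable genes, Pou3f genes in the clustering, neurons chosen by genes), log2 ratios stayed within 1.5-fold of the main value except for Pou3f1 without cluster 10, at 0.55 (neuron-like over VZ) and 1.64 (cholinergic over GABAergic). That alternative, the removal of the 5% of cells with the most genes, and a value of at least 2 as detection were chosen after seeing the data. The Pou3f1 ratio to VZ was also under 2-fold at resolution 0.5, at 0.71. The cholinergic to GABAergic ratio ranged from 1.64 to 2.55 for Pou3f1, 1.63 to 2.27 for Pou3f2, -0.83 to -0.42 for Pou3f3 and -0.44 to 0.20 for Pou3f4. Cluster 10, by its leading genes, held the highest Pou3f1 level in 8 of the 9 clusterings, and at resolution 0.5 the highest was an unnamed cluster at 6.94 that Vstm2l and Zfhx3 led.

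Shares depend on depth and on the value that counts as detected. For Pou3f1, Pou3f2, Pou3f3 and Pou3f4 they were 54.6%, 57.6%, 67.9% and 65.2% in thinned cells, and 41.8%, 40.7%, 53.3% and 51.7% for values of at least 2. Co-detection without thinning was 69.9% (Pou3f2 given Pou3f1), 75.9% (Pou3f3 given Pou3f1), 74.0% (Pou3f4 given Pou3f1), 74.3% (Pou3f3 given Pou3f2), 72.7% (Pou3f4 given Pou3f2) and 73.1% (Pou3f4 given Pou3f3). For values of at least 2 the same pairs gave 47.1%, 46.9%, 49.97%, 46.3%, 56.9% and 51.3%. Because raw depth is unknown, thinning equalizes the deposited totals only.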
